A study of Rattus norvegicus with 8 samples.

Results

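Kinesin motor genes were followed in H9c2 cells, a rat heart-derived myoblast line that can form skeletal muscle-like myotubes, after culture in space or on ground with or without nanoceria. Every gene whose symbol had the form Kif with a number, with or without a closing letter, or Kifc with a number was taken. The rule found 30 genes among 15037 genes with a symbol, each measured by 1 of the 23188 probe sets of the rat Clariom S Pico array. By their best known role, 11 were placed with the mitotic kinesins, 12 with the transport kinesins and 7 in a mixed class of cilium, depolymerase and atypical kinesins. The cultures had stayed aboard the International Space Station or had been grown on ground, and had received 100 µg/ml of serum-coated nanoceria (cerium oxide nanoparticles) or none. All of them were seeded at 35000 cells per square centimetre in differentiation medium, packed at 27 °C, moved to 37 °C on day 7 and fixed on day 10. The 8 arrays held 1 untreated space sample, 2 nanoceria space samples, 2 untreated ground samples (replicates 1 and 3) and 3 nanoceria ground samples, with 30 ng of RNA in each. Ground cultures were a later run on the flight's recorded temperatures, so the regime and the run cannot be told apart. All samples came from a single cell line, and nothing in the labels makes the replicates separate cultures, so the p-values cover only sample-to-sample spread, which may be technical.

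Kinesins are ATP-driven motors that walk along microtubules or take them apart from their ends. The mitotic members build the spindle, move chromosomes and organise the midzone for cytokinesis, and their transcripts peak in late G2 and mitosis. The transport members carry vesicles, endosomes, mitochondria and cilium components, and in muscle fibres the conventional kinesin Kif5b also helps to space the nuclei. When myoblasts leave the cell cycle and fuse, mitotic kinesin transcripts normally decline.

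Promoters are shown first because many cell cycle genes carry a short element, the cell cycle genes homology region (CHR), near their start, often with CCAAT boxes upstream. Of the 30 genes, 25 had a promoter in RefSeq's GRCr8 tables, running from 250 bases before to 50 bases after the annotated start, and for 20 of them that start lay within 500 bases of the gene's 5′ end. CHR letters were searched as TTTGAA on both strands and as TTTAAA, which is its own reverse complement, and CCAAT was searched on both strands. Each word was counted on its own, and a match is a description of letters, not a site. Below, capitals mark these words as they read on the gene's strand, so that TTCAAA is TTTGAA and ATTGG is CCAAT on the other strand. The first 3 promoters hold TTTGAA, the fourth is a mitotic kinesin with none of the words, and the last is a transport kinesin with a CCAAT box alone.
Kifc1: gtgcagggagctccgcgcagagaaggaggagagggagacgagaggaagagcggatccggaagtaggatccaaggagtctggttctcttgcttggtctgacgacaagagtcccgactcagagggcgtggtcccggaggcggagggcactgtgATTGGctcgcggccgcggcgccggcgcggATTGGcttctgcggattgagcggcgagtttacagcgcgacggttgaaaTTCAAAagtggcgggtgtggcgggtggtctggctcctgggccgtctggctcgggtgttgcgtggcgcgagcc
Kif22: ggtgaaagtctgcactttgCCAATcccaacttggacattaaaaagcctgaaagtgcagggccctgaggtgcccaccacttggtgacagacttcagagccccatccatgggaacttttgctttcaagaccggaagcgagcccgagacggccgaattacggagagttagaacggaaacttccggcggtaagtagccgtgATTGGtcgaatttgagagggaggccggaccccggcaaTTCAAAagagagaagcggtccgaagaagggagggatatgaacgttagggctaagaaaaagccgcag
Kif20b: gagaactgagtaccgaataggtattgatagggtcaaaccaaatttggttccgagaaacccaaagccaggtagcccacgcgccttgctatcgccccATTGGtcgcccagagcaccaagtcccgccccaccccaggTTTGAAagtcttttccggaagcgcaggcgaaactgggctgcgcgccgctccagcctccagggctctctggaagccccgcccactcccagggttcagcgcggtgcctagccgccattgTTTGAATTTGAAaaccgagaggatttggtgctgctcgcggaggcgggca
Kif18a: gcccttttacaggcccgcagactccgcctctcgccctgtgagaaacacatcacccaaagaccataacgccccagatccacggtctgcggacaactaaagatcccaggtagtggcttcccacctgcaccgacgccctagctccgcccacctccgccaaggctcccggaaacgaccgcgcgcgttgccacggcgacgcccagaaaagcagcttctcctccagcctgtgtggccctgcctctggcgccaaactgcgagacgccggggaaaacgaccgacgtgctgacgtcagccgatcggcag
Kif5b: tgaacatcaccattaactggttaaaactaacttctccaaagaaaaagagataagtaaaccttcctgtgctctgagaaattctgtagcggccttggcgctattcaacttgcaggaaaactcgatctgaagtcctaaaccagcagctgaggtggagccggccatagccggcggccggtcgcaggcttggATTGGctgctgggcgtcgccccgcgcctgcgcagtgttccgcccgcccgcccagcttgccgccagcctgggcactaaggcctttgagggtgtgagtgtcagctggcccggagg

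The Kifc1 promoter, at chr20:5000679-5000978 of GRCr8 on the plus strand, held TTTGAA on the other strand at base -22 from the start and CCAAT on the other strand at -99 and -70. The Kif22 promoter (chr1:191080829-191081128, minus strand) had the same TTTGAA arrangement at -16 and CCAAT at -231 and -53. The Kif20b promoter (chr1:241840766-241841065, plus strand) held TTTGAA 3 times and CCAAT once, at -155. The Kif18a promoter (chr3:116218757-116219056, plus strand) held none of the words, and that of Kif5b (chr17:56185136-56185435, plus strand) held CCAAT at -63. TTTGAA or TTTAAA occurred in 8 of 10 mitotic, 0 of 9 transport and 2 of 6 other promoters, against 28.2% of 33469 promoters of the same length. The mitotic kinesins with neither were Kif18a and Kif18b. Promoter starts more than 500 bases from the gene's 5′ end were those of the mitotic Kif11 (41951 bases), Kif18b (2697) and Kif23 (1327), and of Kif13a (626) and Kif12 (2608). Words present or absent there may reflect the interval taken. CCAAT occurred in 6 of 10 mitotic, 3 of 9 transport and 1 of 6 other promoters, against 37.5% of all. Median GC content was 62.7% for mitotic, 62.0% for transport and 60.7% for other kinesins, against 51.7% for all promoters.

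Median intensities ran from 107 to 117 over the 8 arrays, and their number limits the precision. Of 10 markers of muscle cells fixed for the check of the line, 9 were measured, with summed intensities of 18386 to 20046 on the space arrays, 15887 to 16799 on the untreated ground arrays and 20798 to 21787 on the nanoceria ground arrays. Most of each of these sums came from Vim, which ran from 13.62 to 14.00 on the log2 scale, so the sums say little about the other muscle markers. The medians of those ran from 5.05 (Chrna1) to 11.07 (Tnnt2). Endothelial (5 of 5 measured), leukocyte (4 of 5) and neural (5 of 5) markers summed to at most 188, 282 and 280. The 4 epithelial markers measured of 5 summed to 2810 to 4073 in space, 1493 to 2779 in untreated and 2726 to 4674 in nanoceria-treated ground cells, nearly all from the keratin Krt8, while Epcam ran from 3.75 to 4.19 on the log2 scale. The files gave no measure of background, so no probe set can be said to lie at 0 or above background, and the part of these marker differences in the results was not tested.

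Ground untreated replicate 3 stood apart, and values without it are given beside the results it moves most. It had the lowest value of all 8 arrays for 8 of 11 mitotic, 2 of 12 transport and 3 of 7 other kinesins, against 16.5% of all probe sets. The same held for 21 of 23 spindle partners, 14 of 16 proliferation markers and 13 of 16 differentiated muscle genes, so it was low for more than genes of dividing cells. Against the mean of the other 7 arrays, all 11 mitotic kinesins lay lower there, by a median difference of -1.64 (log2), from -3.11 for Kif23 to -0.27 for Kif2b. The median difference was 0.01 for the transport kinesins, with 6 of 12 lower, and -0.04 for all probe sets. In bulk RNA, fewer dividing cells and less RNA per cell cannot be told apart.

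**Figure D1:**
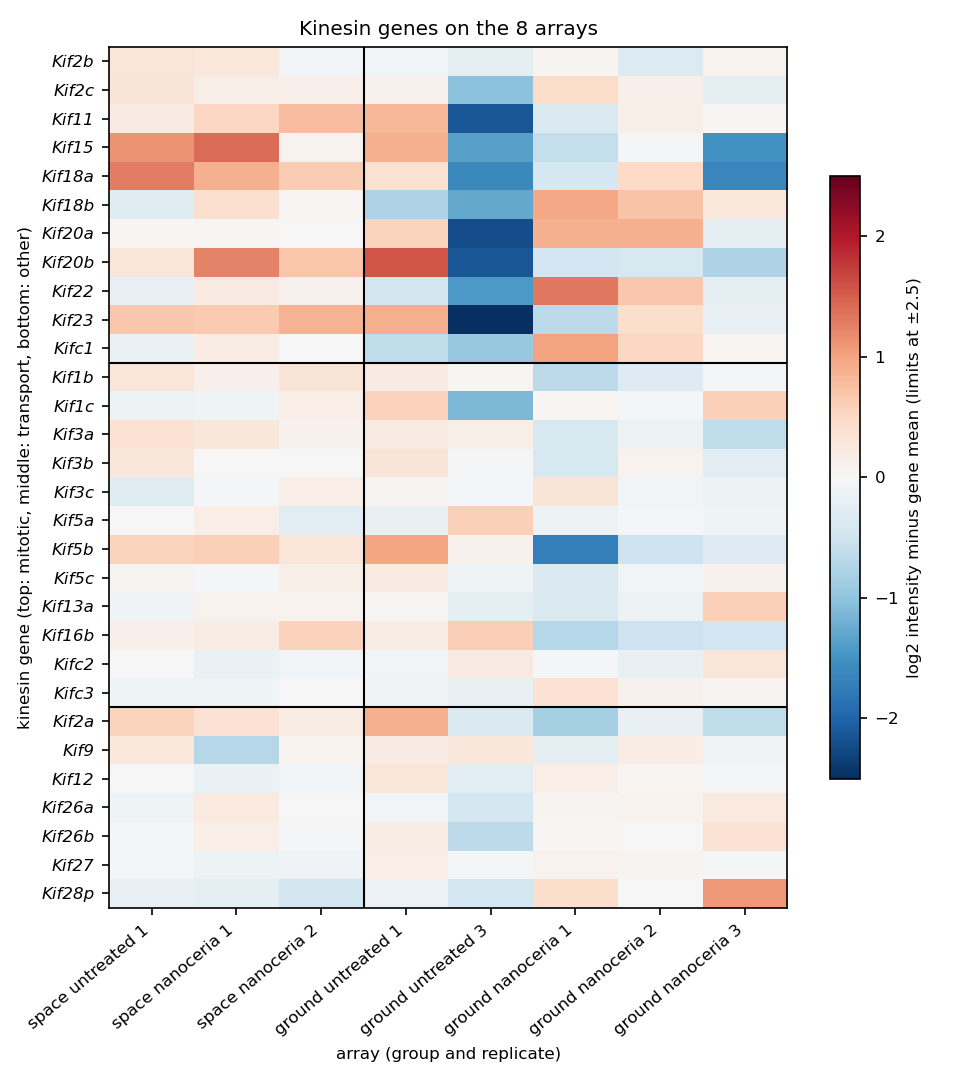
Each row is a kinesin gene and each column an array; colour is the log2 intensity minus that gene's mean over the 8 arrays, with red higher and blue lower. The column of ground untreated replicate 3 is blue for the mitotic genes in the top block, and Kif5b and Kif16b are blue on the 3 ground nanoceria arrays.

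Both treatments were pooled to ask which motors differed between space and ground. No kinesin passed limma's test after Benjamini-Hochberg adjustment at 0.05, nor did any of the 23188 probe sets (0% called), while 1230 were higher and 987 lower in space at an unadjusted p below 0.05. Among mitotic kinesins 8 of 11 lay higher in space, with a median log2 difference of 0.29 against -0.04 for all probe sets, of which 41.3% lay higher. The unadjusted threshold was passed upwards by 2 of 11 mitotic kinesins (Kif18a, Kif15) and 2 of 12 transport kinesins (Kif3a, Kif1b), where the background was 5.3% of probe sets, and downwards by 0 of 30, where it was 4.26%. Without ground untreated replicate 3, 7 of 11 mitotic kinesins lay higher, with a median of 0.21, and Kif16b passed the unadjusted threshold in place of Kif1b. Of the 30 genes, Kif18a alone had space and ground arrays that did not overlap, a separation that 1.97% of all probe sets showed in that direction and 3.14% in the other.

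Kif18a, which damps chromosome movements at the metaphase plate, read 7.09 (log2 intensity, as for all levels below) in untreated space cells and 6.69 and 6.44 in nanoceria space cells. On ground it read 6.19 and 4.21 without nanoceria (replicates 1 and 3) and 5.38, 6.31 and 4.17 with it (replicates 1 to 3). All 3 space arrays thus lay above all 5 ground arrays, and the log2 difference of 1.50 ± 0.54 (SE) had an adjusted p of 0.462. Kif15, which helps Kif11 to keep spindle poles apart, read 6.88 in untreated space cells, 7.15 and 5.84 in nanoceria space cells, 6.63 and 4.40 in untreated ground cells and 5.16, 5.73 and 4.23 in nanoceria ground cells. Its ranges overlapped through ground untreated replicate 1, and the difference was 1.42 ± 0.54 (adjusted p = 0.485). Kif20b, which acts in cytokinesis, read 6.18 in untreated and 7.14 and 6.59 in treated space cells, 7.45 and 3.74 in untreated ground cells, and 5.41, 5.48 and 5.12 in treated ground cells. Its highest and its lowest value both came from untreated ground cells, and its difference between regimes was 1.19 ± 0.70 (adjusted p = 0.618), or 0.70 ± 0.49 without ground untreated replicate 3.

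A further pair was taken up after their values had been seen. Kif23, the motor of the centralspindlin complex at the midzone, read 9.09 in untreated and 9.06 and 9.29 in treated space cells, 9.32 and 5.69 in untreated ground cells, and 7.76, 8.85 and 8.21 in treated ground cells. Kif11, which slides microtubules apart to separate the spindle poles, read 7.22, then 7.52 and 7.77 in space, 7.84 and 4.86 in untreated ground cells, and 6.64, 7.16 and 7.04 in treated ground cells. For both, ground untreated replicate 1 held the highest value and replicate 3 the lowest. Differences between regimes were 1.14 ± 0.70 for Kif23 and 0.76 ± 0.55 for Kif11, with adjusted p of 0.629 and 0.682. Without replicate 3 they were 0.56 ± 0.31 and 0.31 ± 0.27.

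Not all mitotic kinesins lay higher in space. Kif18b, which shortens astral microtubules, differed by -0.01 ± 0.27 and the minus-end motor Kifc1, which focuses spindle poles, by -0.05 ± 0.27. The chromokinesin Kif22, which pushes chromosome arms, differed by -0.01 ± 0.39, and Kif20a, which brings the chromosomal passenger complex to the midzone, by 0.00 ± 0.60. The regime difference of these 4 was smaller than its SE. Without ground untreated replicate 3 all 4 lay lower in space, from -0.16 ± 0.27 for Kifc1 to -0.49 ± 0.27 for Kif20a. The remaining mitotic members, Kif2b and Kif2c, are depolymerases that correct attachments of chromosomes. Kif2c ran from 5.47, on ground untreated replicate 3, to 6.96, and Kif2b from 4.17 to 4.80.

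Among transport kinesins 7 of 12 lay higher in space, with a median difference of 0.08. Kif3a, a motor subunit of kinesin-2, which drives transport into cilia, read 8.29 in untreated and 8.21 and 8.03 in treated space cells. On ground it read 8.16 and 8.08 without nanoceria and 7.55, 7.81 and 7.29 with it, so that the treated ground arrays lay below all the others. The difference between regimes was 0.43 ± 0.16 (adjusted p = 0.468). Kif1b, a motor for mitochondria and synaptic vesicle precursors, read 8.08, then 7.91 and 8.10 in space, 7.98 and 7.82 in untreated ground cells, and 7.13, 7.46 and 7.74 in treated ground cells. It differed by 0.43 ± 0.17 (adjusted p = 0.49), and again the treated ground arrays were the 3 lowest. The minus-end kinesin Kifc2 read 6.56, then 6.40 and 6.48 in space, 6.49 and 6.78 in untreated ground cells, and 6.52, 6.37 and 6.86 in treated ground cells, a difference of -0.12 ± 0.15 with overlapping ranges.

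**Figure D2:**
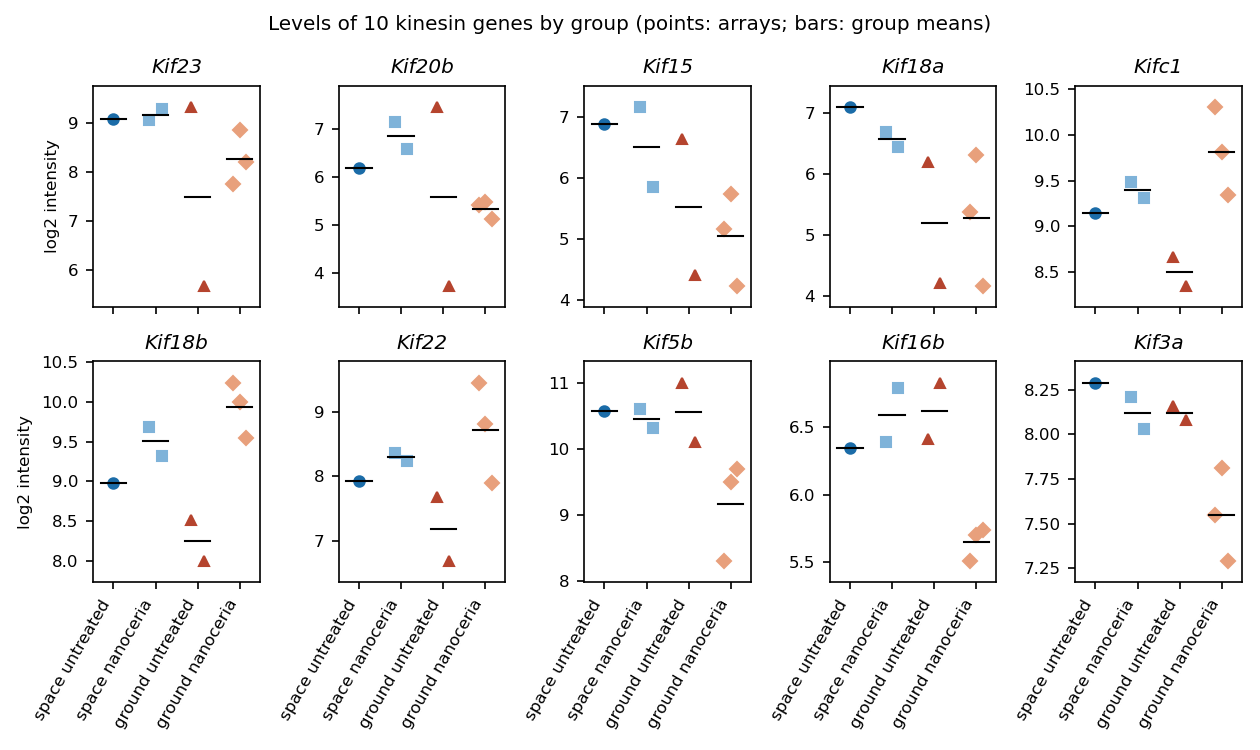
Points are arrays and bars are group means of log2 intensity for 10 kinesin genes in the 4 groups, with a separate vertical scale in each panel that does not start at 0. The 2 untreated ground arrays are far apart for Kif23, Kif20b, Kif15 and Kif18a and close together for Kifc1 and Kif3a, and the 3 treated ground arrays lie lowest for Kif5b, Kif16b and Kif3a.

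Nanoceria was compared with no treatment on ground, where both arms had more than 1 array. No kinesin and 0% of probe sets passed limma's test after adjustment, with 1026 higher and 1523 lower at an unadjusted p below 0.05. Mitotic kinesins lay higher with nanoceria in 9 of 11 cases, with a median difference of 0.60 against 0.04 for all probe sets, and transport kinesins lay lower in 8 of 12, with a median of -0.23. Kif18b, Kifc1 and Kif22 passed the unadjusted threshold upwards, 3 of 11 mitotic kinesins against 4.42% of probe sets. Downwards it was passed by Kif16b, Kif5b and Kif3a, 3 of 12 transport kinesins against 6.57%. The mitotic median turns on the untreated array used: it was -0.04 without ground untreated replicate 3, with 5 of 11 higher, and 1.59 without replicate 1, with 11 of 11 higher. The transport median without replicate 3 was -0.35, with 8 of 12 lower.

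Kif18b read 8.51 and 8.00 in untreated and 10.24, 10.00 and 9.55 in nanoceria-treated ground cells, and 8.98, 9.69 and 9.32 in space (untreated first). Treated and untreated arrays did not overlap on ground, a separation shown upwards by 14.3% and downwards by 12% of all probe sets. The difference of 1.68 ± 0.26 had an adjusted p of 0.128 and was 1.42 ± 0.31 without ground untreated replicate 3. Kifc1 read 8.66 and 8.35 in untreated and 10.30, 9.81 and 9.34 in treated ground cells, and 9.14, 9.48 and 9.31 in space. Its groups did not overlap on ground either, with a difference of 1.31 ± 0.28 (adjusted p = 0.207) that was 1.16 ± 0.36 without that replicate. Kif22 read 7.68 and 6.69 in untreated and 9.45, 8.81 and 7.90 in treated ground cells, and 7.93, 8.36 and 8.24 in space. Its difference was 1.54 ± 0.46 (adjusted p = 0.322), and 1.05 ± 0.53, no longer past the unadjusted threshold, without the replicate.

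Other mitotic members followed ground untreated replicate 3. Kif20b differed by -0.26 ± 0.91 with both untreated arrays and by -2.12 ± 0.28 (adjusted p = 0.0867) without replicate 3, and Kif15 by -0.48 ± 0.73 and -1.59 ± 0.66. Kif11 differed by 0.60 ± 0.74 with both, by -0.89 ± 0.26 without replicate 3 and by 2.09 ± 0.26 without replicate 1. The last value, with an adjusted p of 0.0317, was the only kinesin difference to pass the test under any setting tried, and its untreated arm was the array that stands apart. Kif23 differed by 0.77 ± 0.92 and, without replicate 3, by -1.05 ± 0.40. Kif20a read 9.51 and 6.73 in untreated and 9.84, 9.83 and 8.73 in treated ground cells, a difference of 1.35 ± 0.74 that became -0.04 without that replicate. The signs of Kif11, Kif23 and Kif20a thus depended on which untreated ground array was included. The same held for Kif20b, Kif15 and Kif18a. Their treated ground means (5.34, 5.04 and 5.28) lay below untreated replicate 1 (7.45, 6.63 and 6.19) and above replicate 3 (3.74, 4.40 and 4.21).

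In the transport class, Kif5b and Kif16b lay lower in treated ground cells than on every other array. Kif5b, the heavy chain of conventional kinesin, read 11.00 and 10.11 in untreated and 8.30, 9.50 and 9.69 in treated ground cells, and 10.57, 10.60 and 10.31 in space. It differed by -1.39 ± 0.45 on ground (adjusted p = 0.351), and by -1.84 ± 0.52 without ground untreated replicate 3. Kif16b, a motor of early endosomes, read 6.41 and 6.83 in untreated and 5.51, 5.70 and 5.74 in treated ground cells, and 6.35, 6.39 and 6.79 in space. It differed by -0.97 ± 0.20 (adjusted p = 0.202), and by -0.76 ± 0.23 without that replicate. Kif3a differed by -0.57 ± 0.19 (adjusted p = 0.367) and Kif1b by -0.45 ± 0.21 (adjusted p = 0.481). For these 4 of 12 transport kinesins all treated ground arrays lay below both untreated ones, against the 12% of probe sets given above.

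Some transport kinesins lay the other way. Kifc3, a minus-end motor linked to cell junctions and the Golgi, read 8.97 and 8.87 in untreated and 9.41, 9.16 and 9.12 in treated ground cells, and 8.95, 8.95 and 9.05 in space. It was the 1 transport kinesin whose treated ground arrays all lay higher, by 0.31 ± 0.16 (adjusted p = 0.519). Kif1c, a motor of secretory vesicles and podosomes, read 9.17 and 7.47 in untreated and 8.63, 8.57 and 9.19 in treated ground cells, and 8.47, 8.49 and 8.75 in space. Its groups overlapped, with a difference of 0.48 ± 0.46 that turned to -0.37 without ground untreated replicate 3. The remaining 6 transport kinesins, with Kifc2 as given above, had overlapping treated and untreated groups on ground. Of the further kinesin-2 subunits, Kif3b ran from 7.26 to 7.97 and Kif3c from 7.23 to 7.86 over the 8 arrays. Kif13a, which works at recycling endosomes, ran from 8.45 to 9.42, and the conventional kinesins best known from neurons from 4.92 to 5.81 (Kif5a) and from 8.32 to 8.91 (Kif5c).

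In the mixed class the nanoceria differences on ground went both ways, with 4 of 7 higher and a median of 0.03, or 2 of 7 and -0.13 without ground untreated replicate 3. The depolymerase Kif2a was placed here, although the depolymerases Kif2b and Kif2c were placed with the mitotic kinesins. Kif2a, which acts at spindle poles and in neurites, read 9.34 in untreated and 9.15 and 8.97 in treated space cells. On ground it read 9.67 and 8.42 without nanoceria and 7.95, 8.59 and 8.15 with it, a difference of -0.81 ± 0.37 (adjusted p = 0.47) with overlap through replicate 3. Without that replicate the difference was -1.44 ± 0.28. Kif28p read 5.84, then 5.80 and 5.58 in space, 5.89 and 5.60 in untreated ground cells, and 6.49, 6.05 and 7.13 in treated ground cells. The 3 treated ground arrays were its highest, with a difference of 0.81 ± 0.30 (adjusted p = 0.41), and it was the 1 of 7 in this class past the unadjusted threshold, which it missed without replicate 3 (0.67 ± 0.39).

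The atypical kinesins Kif26a and Kif26b bind microtubules without the usual motor activity. Kif26a read 5.97 and 5.59 in untreated and 6.09, 6.11 and 6.27 in treated ground cells, and 5.92, 6.28 and 6.02 in space. Treated arrays lay above untreated ones in both regimes, by 0.33 ± 0.14 over both (adjusted p = 0.509), which passed the unadjusted threshold with all arrays but not without ground untreated replicate 3 (0.21 ± 0.14). Kif26b read 8.03, then 8.25 and 8.05 in space, 8.28 and 7.43 in untreated ground cells, and 8.11, 8.10 and 8.44 in treated ground cells, with overlapping groups. Kif9 and Kif27 are motors of motile cilia. Kif9 read 5.27, then 4.29 and 5.09 in space, 5.20 and 5.27 in untreated and 4.76, 5.19 and 4.91 in treated ground cells, so untreated arrays lay higher by margins as small as that between 5.20 and 5.19. Kif27 read 6.69, then 6.57 and 6.62 in space, 6.88 and 6.67 in untreated and 6.79, 6.78 and 6.67 in treated ground cells, and Kif12 stayed within 5.79 to 6.35.

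Over both regimes, which adds the single untreated space array, nanoceria-treated cells lay higher for 8 of 11 mitotic kinesins, with a median of 0.52, and lower for 8 of 12 transport kinesins, with a median of -0.16. All probe sets had a median of 0.03, and 0% passed after adjustment, with 874 higher and 1359 lower at an unadjusted p below 0.05. Kif18b (1.27 ± 0.27, adjusted p = 0.349), Kifc1 (0.93 ± 0.27, adjusted p = 0.417) and Kif22 (1.12 ± 0.39, adjusted p = 0.457) passed the unadjusted threshold upwards, 3 of 11 against 3.77% of probe sets. Kif3a (-0.43 ± 0.16, adjusted p = 0.465) and Kif5b (-0.94 ± 0.39, adjusted p = 0.509) passed it downwards, 2 of 12 against 5.86%. The groups did not overlap upwards for Kif18b, Kifc1 and Kif26a, against 2.47% of probe sets, and downwards for Kif9, against 2.28%. Without ground untreated replicate 3 the mitotic median was -0.10, with 3 of 11 higher, and without replicate 1 it was 1.16. Of these genes, Kif18b and Kifc1 alone also passed the unadjusted threshold without replicate 3, while Kif22 (0.73 ± 0.38), Kif3a and Kif5b did not. These comparisons share arrays and do not support one another independently.

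Nanoceria-treated cells were then compared between regimes, where neither arm contains the array that stands apart, although its spread enters the standard errors of the fit. Again 0% of probe sets passed after adjustment, with 1163 higher and 787 lower in space at an unadjusted p below 0.05. Transport kinesins lay higher in space in 9 of 12 cases, with a median of 0.11 against -0.05 for all probe sets, and Kif16b, Kif5b, Kif3a and Kif1b passed the unadjusted threshold upwards, against 5.02% of probe sets. Their differences were 0.94 ± 0.20, 1.29 ± 0.45, 0.57 ± 0.19 and 0.56 ± 0.21, with adjusted p of 0.342, 0.506, 0.495 and 0.547, and the 4 had no overlap between regimes. Among mitotic kinesins 5 of 11 (Kif11, Kif15, Kif18a, Kif20b and Kif23) had both treated space arrays above all 3 treated ground arrays, as did Kif2a, against 13.6% of probe sets. The differences of these mitotic kinesins ran from 0.70 ± 0.74 for Kif11 to 1.52 ± 0.91 for Kif20b, none past the unadjusted threshold. Without ground untreated replicate 3 the differences were the same. The standard errors were smaller for Kif20b (1.52 ± 0.22), Kif11 (0.70 ± 0.20), Kif23 (0.90 ± 0.32) and Kif15 (1.45 ± 0.52). That array was singled out partly by its low mitotic values, so smaller standard errors for these genes are partly built into the choice. The opposite sign was found for Kif18b, Kifc1, Kif22 and Kif20a, at -0.42 ± 0.26, -0.43 ± 0.28, -0.42 ± 0.46 and -0.48 ± 0.74. With all arrays, Kif28p passed the unadjusted threshold downwards (-0.87 ± 0.30, adjusted p = 0.52), against 3.39% of probe sets. Both treated space arrays of Kif28p, Kif12, Kif27 and Kifc3 lay below all 3 treated ground arrays, 4 of 30 kinesins against 17.6%.

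In space, where the untreated arm was 1 array assumed to vary like the other groups, no kinesin passed even the unadjusted threshold, against 0.707% of probe sets upwards and 0.763% downwards. The median nanoceria difference there was 0.09 for mitotic and -0.03 for transport kinesins. Whether nanoceria differences depended on the regime was tested by the interaction, which 0% of probe sets passed after adjustment. At the unadjusted threshold it was passed upwards by Kif16b (1.21 ± 0.34, adjusted p = 1), against 1.44% of probe sets, and downwards by Kif18b (-1.15 ± 0.44, adjusted p = 1), against 0.906%. Without ground untreated replicate 3 Kif18b missed it (-0.89 ± 0.45). Kif16b differed by -0.97 on ground and 0.24 in space, and Kif18b by 1.68 and 0.53. The median interaction of the mitotic kinesins was -0.68 with all arrays and 0.03 without ground untreated replicate 3, so its direction rested on that array. For the transport kinesins it was 0.20 and 0.37.

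The classes were also set side by side array by array. For each gene the mean over the 8 arrays was subtracted, and the median over the class was taken. The mitotic median was 0.29 in untreated and 0.41 and 0.10 in treated space cells, 0.38 and -1.44 in untreated ground cells, and 0.07, 0.45 and -0.22 in treated ground cells. Apart from ground untreated replicate 3, all of its values lay between -0.22 and 0.45. The transport median was 0.04, then 0.05 and 0.13 in space, 0.20 and 0.01 in untreated ground cells, and -0.36, -0.09 and -0.07 in treated ground cells. It was below 0 on the 3 treated ground arrays and above 0 on the other 5, and ground nanoceria replicate 1 was the lowest array for 6 of 12 transport kinesins, against 16.6% of all probe sets. That same array was the highest for 5 of 11 mitotic kinesins, against 16.3% of all probe sets, and for 10 of 16 proliferation markers.

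**Figure D3:**
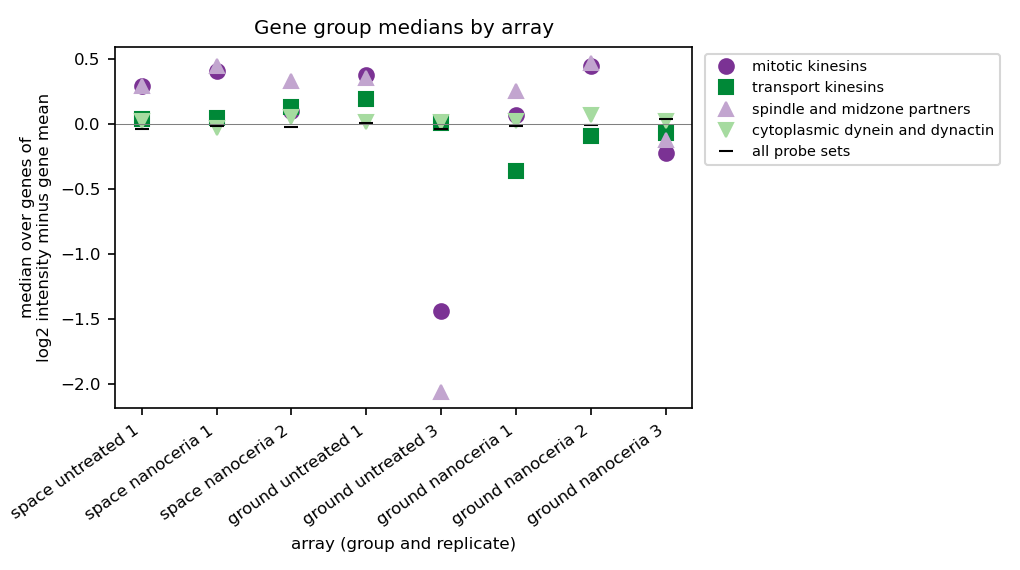
For each array, points are the median over a gene group of log2 intensity minus the gene's mean over the 8 arrays. Mitotic kinesins (-1.44) and their spindle partners (-2.06) lie far below 0 on ground untreated replicate 3, where transport kinesins, the dynein group and all probe sets lie near 0.

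Partners of the mitotic motors had the same low array. Of 29 spindle and midzone genes listed, 23 were measured, and their class median was -2.06 on ground untreated replicate 3 and between -0.12 and 0.47 elsewhere. For nanoceria on ground 20 of 23 partners lay higher, with a median of 0.97, among them the kinases Aurka (1.56 ± 0.49) and Plk1 (2.38 ± 0.89). Without replicate 3 the direction turned, with 9 of 23 higher, 14 lower and a median of -0.12. Aurka (0.64 ± 0.27) and Plk1 (0.54 ± 0.21) then differed less but were among the 9 that lay higher. Of 16 differentiated muscle genes measured (of 20 listed), 15 lay higher with nanoceria on ground, with a median of 1.25. Without replicate 3 it was 13 of 16 with a median of 0.53, while the medians of partners and mitotic kinesins lay below 0. For nanoceria on ground the proliferation markers did not turn, with 14 of 16 higher and a median of 1.12 with both untreated arrays. Without replicate 3 it was 13 of 16 with a median of 0.43, so this list and the spindle partners did not go the same way. Its 16 genes include Cdkn1a, an inhibitor of the cell cycle, so the counts do not describe genes of dividing cells alone. For space against ground 21 of 23 partners lay higher, with a median of 0.53, or 15 of 23 with 0.10 without replicate 3. The proliferation markers did turn in this comparison. With all arrays 11 of 16 lay higher, with a median of 0.15, and 5 of 16 with a median of -0.12 without replicate 3. Muscle genes lay lower in 13 of 16 cases, with a median of -0.32, or in 16 of 16 with -0.58 without it. These lists, like the classes, were chosen with earlier results of these data known.

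Adaptors and light chains of transport kinesins link the motors to cargo, and 16 of 23 listed were measured. For nanoceria on ground 10 of 16 lay higher, against 55.5% of all probe sets, with a median of 0.13 that was 0.03 without ground untreated replicate 3 and 0.06 without replicate 1. Map7d1, which recruits Kif5b to microtubules (0.66 ± 0.16), and the light chain Klc4 (0.63 ± 0.17) passed the unadjusted threshold upwards, 2 of 16 against 4.42% of probe sets. The mitochondrial adaptor Rhot1 (-0.81 ± 0.23) passed it downwards, 1 of 16 against 6.57%, and missed it without replicate 3. Cytoplasmic dynein and dynactin form the main motor that walks the other way, and all 28 genes listed were measured. On ground 16 of 28 lay lower with nanoceria, with a median of -0.06, but the median was 0.03 without ground untreated replicate 3 and 0.05 without replicate 1, so the list had no stable direction. The cargo adaptor Hook3 differed by -1.67 ± 0.27 (adjusted p = 0.135), so that it lay lower together with Kif5b and Kif16b, and the dynactin subunit Actr1b by 0.63 ± 0.17. For space against ground 11 of 16 adaptors lay lower (median -0.16) and 17 of 28 dynein and dynactin genes lay higher (median 0.05).

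Gene span was examined after the mitotic kinesins had been seen to divide into genes with higher and lower values in treated space cells. Spans from RefSeq's GRCr8 annotation were available for all 30 kinesins and for 15031 genes. The 5 mitotic kinesins that lay apart upwards spanned 28.5 kb (Kif23), 55.6 kb (Kif20b), 60.4 kb (Kif18a), 70.9 kb (Kif15) and 94.3 kb (Kif11). The 4 with negative differences spanned 8.49 kb (Kif20a), 15.1 kb (Kif22), 18.0 kb (Kifc1) and 21.9 kb (Kif18b). Every gene of the first set was longer than every gene of the second, but both sets were formed by their differences. The other 2 mitotic kinesins lay near 0: Kif2c (25.3 kb, 0.02 ± 0.34), and Kif2b, which is the shortest of the 11 at 2.22 kb and went against the pattern with 0.15 ± 0.20. The annotated span of Kif11 begins 41951 bases from the start of its promoter entry, so part of its length comes from a distant annotated 5′ end. Spearman's rank correlation of span with the difference between regimes in treated cells was 0.72 over the 11 mitotic kinesins. It was 0.33 over the 12 transport kinesins, 0.11 over the 7 of the mixed class, 0.37 over the 30 kinesins and 0.23 over all genes. These are correlations across genes that share the same 8 arrays, and genes are not independent replicates.

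The same direction was seen over the whole array, at a smaller size. In treated cells the median difference of space minus ground was -0.11 for the shortest genes (up to 9.26 kb), -0.08 for the middle ones and 0.02 for the longest, each set holding about the same number of genes. Of the 30 kinesins, 20 fell among the longest, and 14 of these 20 lay higher in space, against 53.1% of all the longest genes. For nanoceria on ground, which shares the treated ground arrays, the rank correlation was -0.20 over all genes and -0.54 over the mitotic kinesins, the latter being -0.61 without ground untreated replicate 3 and -0.05 without replicate 1. The transport kinesins Kif5b (37.6 kb) and Kif16b (280 kb) were also among the longest genes. Kif28p (54.8 kb) went the other way, with a difference of -0.87 in treated cells. Smaller differences in that direction were found for Kif26b (406 kb), the longest of the 30, and for Kifc3 (95.2 kb). They were also found for Kif27 (78.8 kb), Kif9 (68.6 kb) and Kif26a (36.0 kb).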

How the data were processed

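Total RNA of 8 samples was measured on 1 rat array each. The deposited values were linear intensity per probe set, and the submitters' processing notes name RMA, with software and version not given in the sources used here. Log2 of the intensity was taken without a pseudocount. limma 3.58.1 (R 4.3.3) was run on all 23188 probe sets and p-values were adjusted by Benjamini-Hochberg at 0.05. Comparisons pooled over the other factor came from a model with regime and treatment as additive terms and 5 residual degrees of freedom; the rest came from a model of 4 group means, leaving 4. Lists were described by counts and medians, with no test. The fits were tested on simulated data.

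Values on every array were given for the 2 kinesins of each class with the smallest p in each direction of 3 comparisons and the 2 brightest of each class; Kif11, Kif20a, Kif22 and Kif23 were added after their values were seen. Members, classes and lists were chosen with earlier results of these data known. Promoters and spans came from RefSeq's GRCr8 tables, matched by gene identifier, whereas the labels' protocols name Rnor_6.0 for the array. Alternatives were other scalings, a pseudocount, a filter on dim probe sets, variance settings, array weights, the replicate number as a block, and leaving out each array. Ground untreated replicate 2 was not analysed here.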

Additional observations from a re-analysis of the deposited data

Results flagged for a closer look

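For each class and array, the median over the class of log2 intensity minus the gene's mean was taken. The mean of these medians over the untreated arrays of the same regime was then subtracted from the median of each nanoceria array. For transport kinesins the 3 ground arrays lay at -0.47, -0.19 and -0.17 and the 2 space arrays at 0.01 and 0.09 (log2). By this measure every ground array lay below 0 and every space array above it. The mean of the space arrays exceeded that of the ground arrays by 0.32. For the mixed class of other kinesins the ground arrays lay at 0.14, 0.13 and 0.06 and the space arrays at -0.11 and -0.01, a difference of -0.17. Neither difference was tested over the class, and both space values rest on a single untreated array. Taken gene by gene, 7 of 12 transport kinesins lay lower with nanoceria in space, with a median difference of -0.03, so most members did not follow the array medians there.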

How the results depend on the processing

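With 8 arrays and no measure of background, precision and dim probe sets set the limits. In each class and each direction of 3 comparisons, the 2 kinesin differences with the smallest p were followed, 36 in all. Of these 36, 26 kept their direction under every setting tried and 10 turned in at least 1. The ground nanoceria differences of Kif11, Kif23, Kif20a and Kif18a, whose signs depended on the untreated array, were not among the 36. For space against ground, 4 probe sets were called with array weights and 1 with a trended prior, none of them a kinesin, and leaving out 1 array gave 0 to 1 (the 1 when either the second treated or the third untreated ground array was left out). For nanoceria on ground, leaving out 1 array gave 0 to 167 calls, the 167 without ground untreated replicate 1. There the mitotic median ran from -0.037 without ground untreated replicate 3 to 1.59 without replicate 1, and the median of the mixed class from -0.13 to 0.32. Kif18b between regimes was 0.020 after cyclic loess. With 1 array left out, Kifc1 between regimes ran from -0.43 to 0.14, Kif18b from -0.42 to 0.21 and Kif26a from -0.023 to 0.13. Over both regimes, the nanoceria difference ran from -1.03 to 0.16 for Kif15, from -0.73 to 0.32 for Kif18a and from -0.13 to 0.77 for Kif1c. On ground it ran from -1.59 to 0.64 for Kif15, from -2.12 to 1.59 for Kif20b and from -0.37 to 1.33 for Kif1c. Why these values turned was not tested. Same-numbered arrays did not deviate together from their group means (correlations of -0.35 to -0.01). With groups this small, and arrays of different numbers not compared, these correlations cannot decide whether the numbers pair samples. With the replicate number as a replicate block Kifc2 between regimes was 0.018 and 0 probe sets were called in any comparison. The comparison within space and the interaction cannot be estimated without the untreated space array, and each kinesin had 1 probe set, so a mean over probe sets gave the same values.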
